A study of Homo sapiens with 18 samples.

Results

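Interferon-stimulated genes are described here in Raji cells, over a list of 42 genes that was matched by symbol to the deposited table of counts. The table held 60663 genes once broken entries and second copies of pseudoautosomal genes were set aside, and it held all 42 listed genes. Of these, 29 passed a filter on low counts that kept 16474 genes for testing, and 13 did not. Raji is a long-established B cell line from a human Burkitt lymphoma. The cells carried an auxin-inducible degron, a tag that lets auxin direct a protein to breakdown, on SMARCA4, the ATPase that drives the BAF chromatin remodelling complexes; the labels give every sample the genotype Smarca4+/+. Ribosomal RNA was removed from total RNA, and 18 libraries were sequenced in 6 groups of 3: GFP high and GFP low cells at 24, 48 and 72 h. What GFP reports, how the cells were separated, the dose of auxin, from which event the hours count and whether the line was 1 clone are not stated in the labels or files; the column names of 6 libraries join GFP and BRG1, another name of SMARCA4, and say no more. Each difference below is GFP low minus GFP high on the log2 scale.

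Type I interferons are secreted by infected or stimulated cells and bind the receptor pair IFNAR1 and IFNAR2, whose kinases JAK1 and TYK2 phosphorylate transcription factors such as STAT2. With IRF9, STAT2 is part of the complex ISGF3, which binds a promoter element called the interferon-stimulated response element (ISRE) and switches on genes that sense viral nucleic acid, block translation and entry, or tag proteins. Many of these genes also have a basal level in B cells without added interferon, and interferon gamma acts on an overlapping set through the gamma-activated site (GAS) of promoters and through IRF1.

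Libraries held 27257876 to 55419458 counts in genes, and mitochondrial genes took 2.666% to 4.616% of them. Column names place the libraries in 3 sets, which are set 1, set 2 and an unnumbered set, with 1 library of each group in each; values of 3 libraries below are in that order. Separate cultures are not named in the labels, and the p-values cover only how far these libraries vary, possibly for technical reasons. SMARCA4 mRNA, which does not report the level of the tagged protein, was at 411 to 429 CPM in GFP high and 575 to 614 CPM in GFP low libraries at 24 h (log2 fold change 0.50 ± 0.03 SE, adjusted p = 3.27e-12). All 6 B cell markers passed the filter, and their sum was 2170 to 2630 CPM over the 18 libraries. At 24 h the sum of 8 T cell markers was 44 to 46.8 CPM in GFP high and 22.9 to 25.8 CPM in GFP low libraries, with CD8A at 0 in every library. The sum of 6 monocyte or macrophage markers was 0.88 to 1.1 CPM against 2.16 to 2.53 CPM, with FCGR3A at 0. That of 6 plasmacytoid dendritic cell markers, of which only TCF4 passed the filter and IL3RA was at 0, was 150 to 157 CPM against 188 to 194 CPM. NK markers summed to 1.05 to 1.53 CPM against 0.721 to 1.34 CPM, 5 epithelial or kidney markers to 2.26 to 2.79 CPM against 5.2 to 6.16 CPM, and 3 fibroblast markers to 5.63 to 6.1 CPM against 8 to 9.98 CPM. The part of these differences in the results below was not tested.

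The listed genes spanned a wide range of levels. Counts were scaled to CPM, the count of a gene relative to a fixed library total, with TMM factors. Levels of different genes are ranked only as CPM per kb of exon, while cuts at 1 CPM are not scaled to exon length. BST2, a membrane protein that tethers budding virus to the cell, had the highest level with a mean of 65.5 CPM per kb over the 18 libraries. It was followed by the DNA sensor IFI16 at 36.7, the ubiquitin ligase DTX3L at 10, the ubiquitin-like modifier ISG15 at 7.61 and the RNA sensor IFIH1 (MDA5) at 6.6 CPM per kb. Several genes often used to score an interferon response were at or near 0. HERC5, the ligase that attaches ISG15, and PARP12 had 0 counts in all 18 libraries; a count of 0 allows up to 3 counts in a library, by counting error only. CMPK2 had 1 count and RSAD2 (viperin), an enzyme that makes a chain-terminating nucleotide, 2 counts over the 18 libraries together. MX1, a dynamin-like GTPase that traps viral particles, had at most 2 counts in a library, and OAS3, HERC6 and EPSTI1 also had at most 2. OASL, IFIT1, IFI44L and USP18 had at most 5, 9, 11 and 6 counts in a library, and IFITM2 at most 19. These 13 genes were not tested. The plot of level by gene shows them below the tested genes in most cases.

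**Figure D1:**
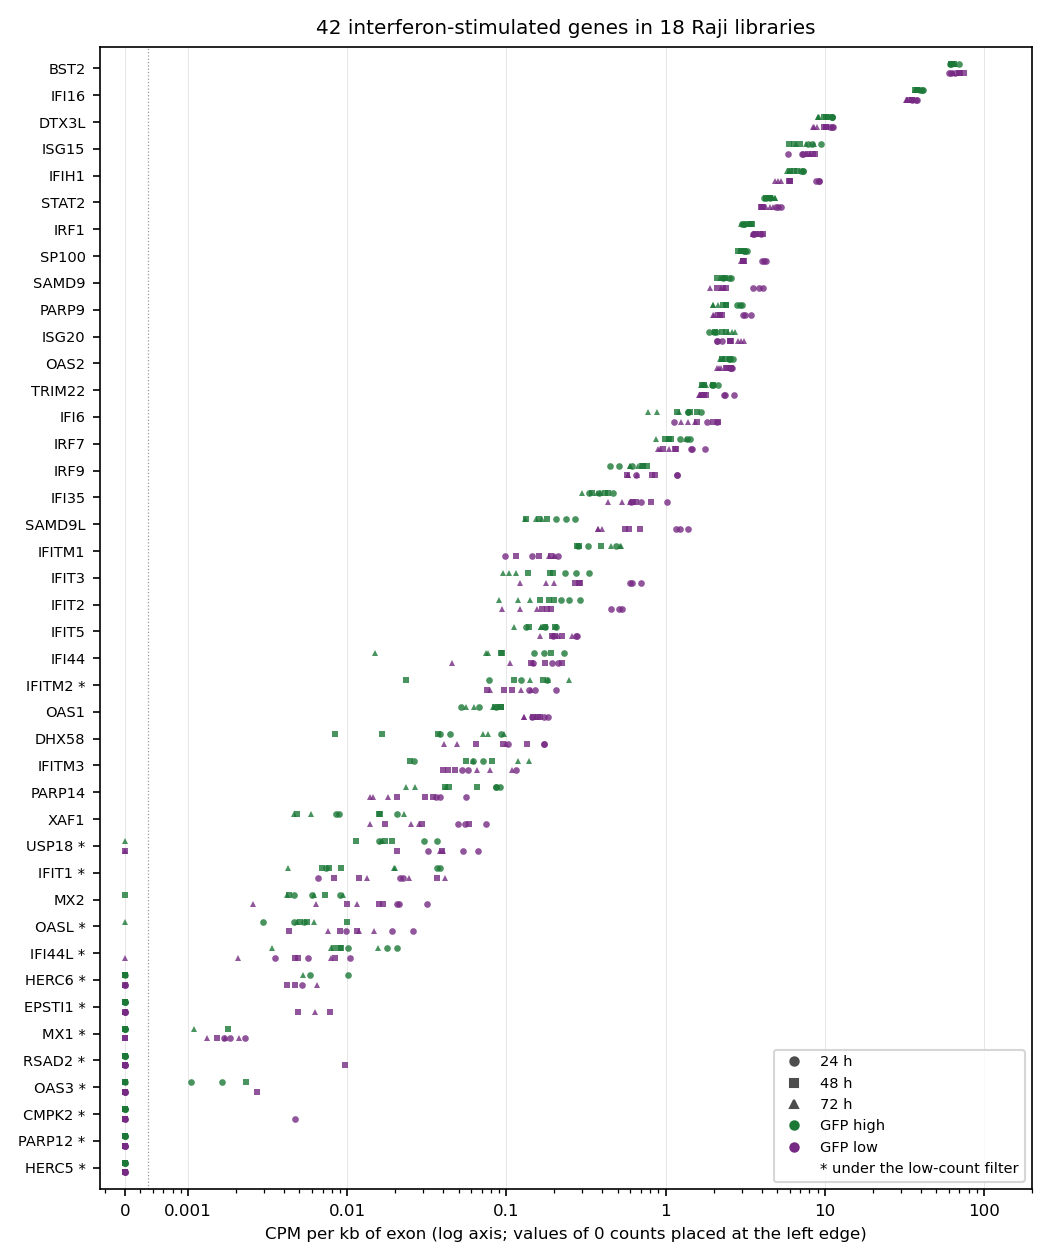
Level of each of the 42 genes as CPM per kb of exon on a log axis, with 1 point per library (green, GFP high; purple, GFP low; circle, square and triangle, 24, 48 and 72 h) and genes ordered by their mean. BST2 lies highest at a mean of 65.5 CPM per kb, and HERC5 and PARP12 have only points at 0 counts, which are placed at the left edge.

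The promoter letters are shown because genes with the same response element lay at opposite ends of this range. RefSeq windows on GRCh38.p14, from 250 bases before to 50 bases after a gene's start, were at hand for 33 of the 42 genes. The letters GAAANNGAAA, a core of the ISRE, were searched on both strands with overlapping matches allowed. They occurred in the windows of 22 of the 33 genes, 66.7%, and in those of 4.38% of all 27305 symbols with a window. Below are stretches before the start, on the strand of each gene, with the matching letters in capitals; the first 4 belong to genes whose mean is 1 CPM or more and the last 4 to genes under the filter, from 0 to 9 counts in a library.
ISG15: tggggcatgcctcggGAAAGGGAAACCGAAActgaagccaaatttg
SAMD9: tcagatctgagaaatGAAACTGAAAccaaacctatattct
IFIT3: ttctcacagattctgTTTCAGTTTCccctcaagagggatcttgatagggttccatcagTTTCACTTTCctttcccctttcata
IFI6: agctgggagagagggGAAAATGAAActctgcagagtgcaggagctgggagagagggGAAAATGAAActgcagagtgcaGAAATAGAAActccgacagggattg
IFIT1: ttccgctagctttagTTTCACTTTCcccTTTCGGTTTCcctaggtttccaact
HERC5: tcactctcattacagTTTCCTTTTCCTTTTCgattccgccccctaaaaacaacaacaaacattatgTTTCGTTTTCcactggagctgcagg
RSAD2: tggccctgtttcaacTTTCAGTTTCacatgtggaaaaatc
EPSTI1: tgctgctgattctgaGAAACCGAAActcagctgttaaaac
The stretches lie at chr1:1013369-1013414 (ISG15, plus strand), chr7:93118091-93118130 (SAMD9, minus strand), chr10:89332420-89332502 (IFIT3, plus strand), chr1:27672261-27672363 (IFI6, minus strand), chr10:89392492-89392544 (IFIT1, plus strand), chr4:88456979-88457069 (HERC5, plus strand), chr2:6877617-6877656 (RSAD2, plus strand) and chr13:42992267-42992306 (EPSTI1, minus strand). ISG15 has 2 overlapping matches and HERC5, at 0 counts, has 3 matches. By CPM not scaled to exon length, 9 of the 17 genes that had a window and averaged 1 CPM or more held the letters. Of the 16 genes below 1 CPM, 13 did. The windows of SAMD9L, OAS1 and IRF9, which had some of the largest differences below, held none; that says only that these letters are not in those 300 bases. The letters TTCNNNGAA, a core of the GAS, were in the windows of 9 of the 33 genes, 27.3%, and of 9.38% of all symbols.

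At 24 h, the largest differences between GFP low and GFP high cells among genes that reached a mean of 1 CPM in some group were all towards GFP low. SAMD9L, OAS1, IFIT3, IFIT2, IFI35 and IRF9 were higher by 0.94 to 2.39 on the log2 scale. Among called genes that did not reach that level, IFITM1 and PARP14 were lower (-1.17 and -1.03), and DHX58, MX2 and XAF1 were higher. Among the 29 tested genes, 16 were higher in GFP low, 4 were lower and 9 were not called, at an adjusted p under 0.05 in edgeR's quasi-likelihood test. Over all 16474 tested genes 29.3% were higher and 28.5% were lower in the same comparison. The median log2 fold change was 0.29 over the 29 genes and 0.03 over all tested genes. MX2 and XAF1 passed the filter only through the GFP low libraries at 24 h, where they are high, so that these counts and this median are a description and not support for a direction. In these RNA mixtures, fewer cells that express a gene and less RNA of it per cell cannot be told apart.

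At 48 h 10 of the 29 tested genes were higher and 4 lower in GFP low, beside 10.6% higher and 13.2% lower over all tested genes, with medians of 0.07 and -0.01. At 72 h 5 were higher and 3 lower, beside 12.9% and 13.5% over all tested genes, with medians of 0.03 and 0. The plot of the GFP difference of each gene shows that SAMD9L, OAS1 and IFIT3 were higher in GFP low at each of the 3 times.

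**Figure D2:**
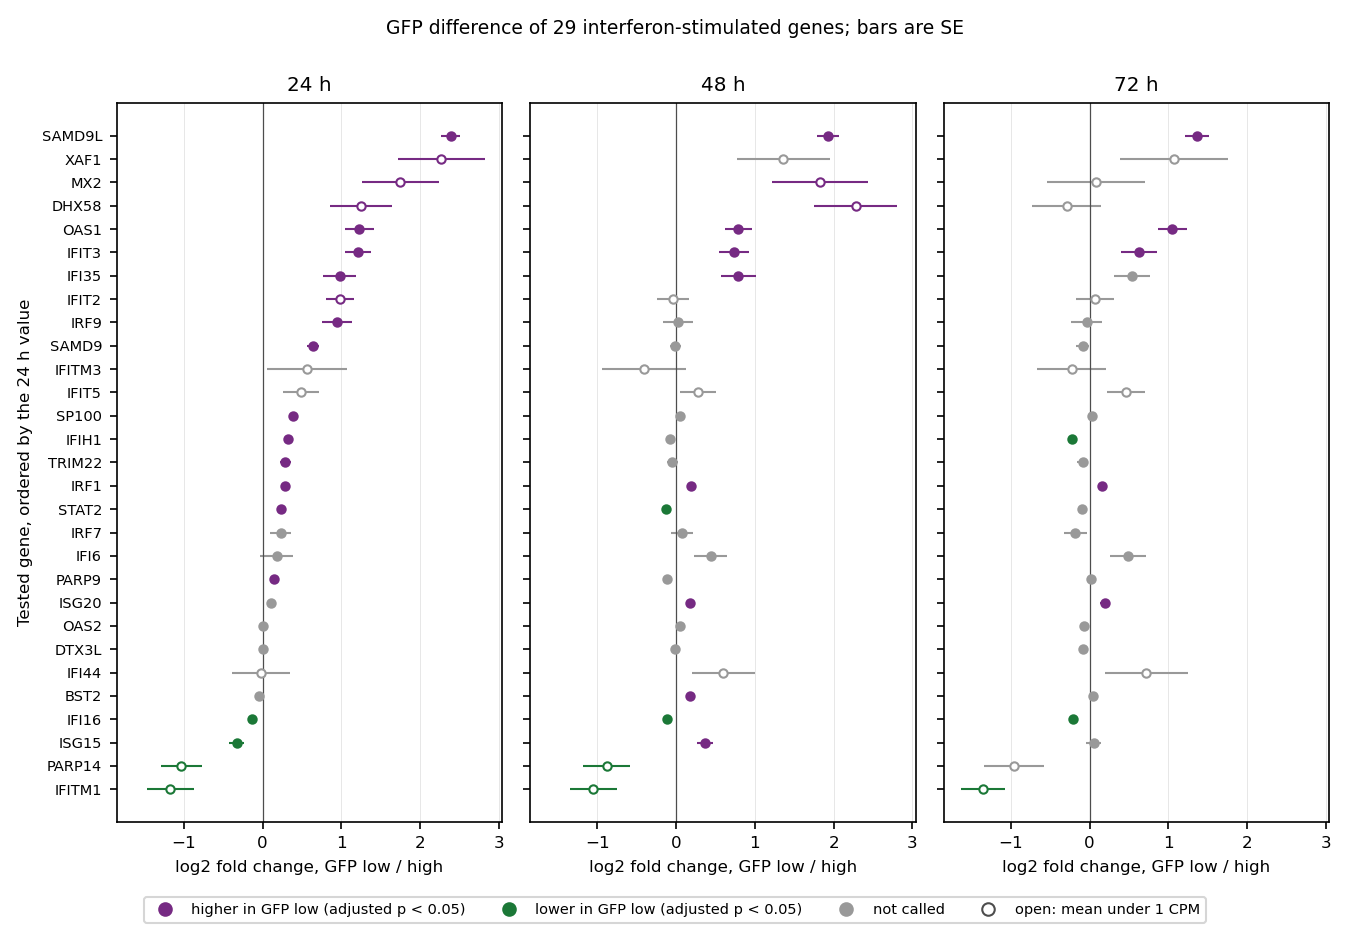
Log2 fold change of GFP low against GFP high with SE from the fitted model for the 29 tested genes at 24, 48 and 72 h (purple, higher; green, lower; grey, not called; open, mean under 1 CPM over the 18 libraries). SAMD9L is at 2.39, 1.93 and 1.36 at the 3 times, and IFITM1 at -1.17, -1.05 and -1.35. MX2 and XAF1 passed the filter only through GFP low at 24 h, so their 24 h points and colours are a description only.

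SAMD9 and SAMD9L are neighbouring paralogues on chromosome 7 (SAMD9L at chr7:93130056-93148385, hg38, minus strand) that restrict translation and growth. SAMD9L was at 1.47, 1.93 and 1.69 CPM in GFP high and 9.87, 8.36 and 8.84 CPM in GFP low libraries at 24 h. It was at 1.28, 1.15 and 0.954 CPM against 4.91, 4.18 and 3.97 CPM at 48 h, and at 1.09, 0.938 and 1.19 CPM against 2.83, 2.69 and 2.68 CPM at 72 h. Every GFP low library was above every GFP high library at each time, and the GFP low levels were in descending order over the 3 times without overlap. The log2 fold changes were 2.39 ± 0.12, which is 5.24-fold, 1.93 ± 0.14 and 1.36 ± 0.15 (SE; adjusted p = 2.68e-13, 7.23e-10 and 3.75e-07). The neighbour SAMD9 (chr7:93099513-93118023) differed at 24 h only in this test, with 17.1, 15.8 and 17.7 CPM in GFP high and 28.1, 24.3 and 26.5 CPM in GFP low libraries (0.64 ± 0.07, adjusted p = 6.24e-08). The groups did not overlap at 24 h. At 48 and 72 h the SAMD9 groups overlapped, at 14.4 to 16.4 and 13.1 to 16.4 CPM over both GFP levels, and its GFP difference was smaller at 48 than at 24 h by 0.65 ± 0.10 (adjusted p = 1.79e-05).

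Transcription factors of the pathway were higher in GFP low at 24 h for 3 of 4 genes, beside 29.3% higher over all tested genes. IRF9, the DNA-binding partner of STAT2 (chr14:24161265-24166565), was at 1.61, 1.83 and 2.2 CPM in GFP high and 4.2, 4.19 and 2.34 CPM in GFP low libraries. The GFP low library of the unnumbered set lay apart from the other two, just above the highest GFP high library. The difference was 0.94 ± 0.19 (adjusted p = 0.000193). At 48 h IRF9 was at 2.74, 2.54 and 2.58 CPM against 3.05, 2.06 and 2.92 CPM, and at 72 h at 2.41, 2.13 and 2.14 CPM against 2.35, 2.07 and 2.09 CPM. The groups overlapped at both times, and the difference fell by 0.92 ± 0.27 from 24 to 48 h (adjusted p = 0.00725). A gene on the same strand shares 42.2% of IRF9's exon bases, and how such reads were assigned is not stated in the labels or files. STAT2, the transactivating part of ISGF3, was at 25.6, 27.9 and 26.6 CPM in GFP high and 30.6, 31.4 and 32.7 CPM in GFP low libraries at 24 h. It was at 26.6, 27.9 and 27.9 CPM against 25.5, 24.7 and 25 CPM at 48 h. The groups were apart at both times, on opposite sides: 0.24 ± 0.04 at 24 h and -0.13 ± 0.04 at 48 h (adjusted p = 6.16e-05 and 0.0294), with a change between them of -0.37 ± 0.06 (adjusted p = 3.27e-05). The 48 h call was lost without any 1 of 5 of the 6 libraries, all but the GFP high library of set 1, with values of -0.16 to -0.11 and an adjusted p of up to 0.147 over the 6. At 72 h STAT2 was at 30.2, 30.1 and 29.1 CPM against 26.3, 28.2 and 29.1 CPM and was called only when the library set was a block (-0.10 and -0.10, adjusted p = 0.115 without and 0.0409 with the block). IRF1, an early interferon gamma target that activates MHC class I genes, was at 36.8, 37.8 and 37.8 CPM in GFP high and 43.7, 48.5 and 43.3 CPM in GFP low libraries at 24 h. At 48 h it was at 42.7, 42.1 and 40.8 CPM against 45.2, 49.9 and 48 CPM, and at 72 h at 36.4, 41.7 and 39.9 CPM against 43.2, 45.5 and 43.5 CPM. GFP low was above GFP high without overlap each time, by 0.28 ± 0.05, 0.19 ± 0.05 and 0.16 ± 0.05 (adjusted p = 6.17e-05, 0.0064 and 0.0204). The 72 h call was lost without the GFP high library of set 1 (0.12, adjusted p = 0.116) or the GFP low library of set 2 (0.13, adjusted p = 0.121). The antisense gene IRF1-AS1 shares 22.9% of IRF1's exon bases and was at a mean of 2.4 CPM; without a known strand setting their reads cannot be told apart. IRF7, which drives interferon alpha genes, was at 3.2 to 3.7 CPM against 3.76 to 4.6 CPM at 24 h and was not called at any time.

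Sensors of foreign nucleic acid moved in both directions. IFIH1 (chr2:162267074-162318684, minus strand), which binds long double-stranded RNA, was at 37, 35.9 and 37.3 CPM in GFP high and 46.6, 44.5 and 46.6 CPM in GFP low libraries at 24 h. The 48 h values were 30.8, 32.4 and 33.9 CPM against 30.6, 30.7 and 30.4 CPM, and those at 72 h were 29.5, 30.4 and 30.7 CPM against 25.9, 27.1 and 24.7 CPM. GFP low was thus above GFP high at 24 h and below it at 72 h, without overlap at either time. The log2 fold changes were 0.32 ± 0.04, -0.08 ± 0.04 and -0.22 ± 0.04 (adjusted p = 3.07e-07, 0.159 and 0.000493). IFI16 (chr1:158999968-159055155), a nuclear and cytosolic DNA sensor, was at 217, 210 and 219 CPM in GFP high and 200, 187 and 199 CPM in GFP low libraries at 24 h. It was at 196, 201 and 200 CPM against 186, 178 and 188 CPM at 48 h, and at 202, 194 and 202 CPM against 174, 170 and 173 CPM at 72 h. GFP low was lower without overlap at each time, by -0.14 ± 0.03, -0.11 ± 0.03 and -0.21 ± 0.03 (adjusted p = 0.000218, 0.00538 and 8.66e-06). The 48 h call was lost without the GFP low library of set 2 (-0.07, adjusted p = 0.0925).

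The OAS enzymes make short oligoadenylates, which activate the nuclease RNase L. OAS1 (chr12:112905856-112933219) was at 0.88, 1.12 and 0.677 CPM in GFP high and 2.36, 2.24 and 1.89 CPM in GFP low libraries at 24 h. At 48 h it was at 1.21, 1.2 and 1.1 CPM against 1.91, 2.12 and 2.04 CPM, and at 72 h at 0.815, 0.723 and 1.07 CPM against 1.68, 1.67 and 2 CPM. GFP low was higher without overlap at each time, by 1.23 ± 0.18, 0.79 ± 0.17 and 1.05 ± 0.18 (adjusted p = 3.11e-06, 0.00158 and 0.000168). OAS2, on the same stretch of chromosome 12, was at 27.9 to 29.9 CPM against 28.6 to 29.4 CPM at 24 h, with overlap, and was not called at any time.

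Some IFIT proteins bind the end of viral RNA and block its translation. IFIT3 (chr10:89327307-89377473) was at 1.67, 1.18 and 1.39 CPM in GFP high and 3.02, 3.12 and 3.55 CPM in GFP low libraries at 24 h. The 48 h values were 0.957, 0.692 and 0.989 CPM against 1.36, 1.45 and 1.46 CPM, and those at 72 h were 0.483, 0.527 and 0.58 CPM against 1.01, 0.619 and 0.893 CPM. GFP low was higher without overlap each time, and both GFP levels were lower at each later time. The differences were 1.21 ± 0.17, 0.73 ± 0.19 and 0.63 ± 0.23 (adjusted p = 2.05e-06, 0.00758 and 0.0449). The 48 h call was lost without the GFP high library of set 2 (0.56, adjusted p = 0.0648). The 72 h call was lost without any 1 of 5 of the 6 libraries, all but the GFP low library of set 2 (0.49 to 0.83 over the 6, adjusted p of up to 0.195), and when the library set entered as a block (0.61, adjusted p = 0.0593). IFIT2 (chr10:89283694-89309271) was at 1.26, 1.07 and 0.948 CPM in GFP high and 1.97, 2.2 and 2.31 CPM in GFP low libraries at 24 h, a difference of 0.98 ± 0.18 (adjusted p = 5.18e-05). At 48 h it was at 0.861, 0.797 and 0.706 CPM against 0.818, 0.725 and 0.779 CPM, and at 72 h at 0.513, 0.391 and 0.611 CPM against 0.671, 0.404 and 0.523 CPM. The groups were apart at 24 h and overlapped at both later times, and the difference fell by 1.02 ± 0.27 from 24 to 48 h (adjusted p = 0.00379). IFIT5 was at 0.576 to 0.897 CPM against 0.862 to 1.21 CPM at 24 h, with overlap, and was not called. Exons of IFIT2 and IFIT3 share 65 and 94 bases with LIPA on the opposite strand, which was at a mean of 58.5 CPM; LIPA itself was at -0.05 ± 0.03 at 24 h.

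**Figure D3:**
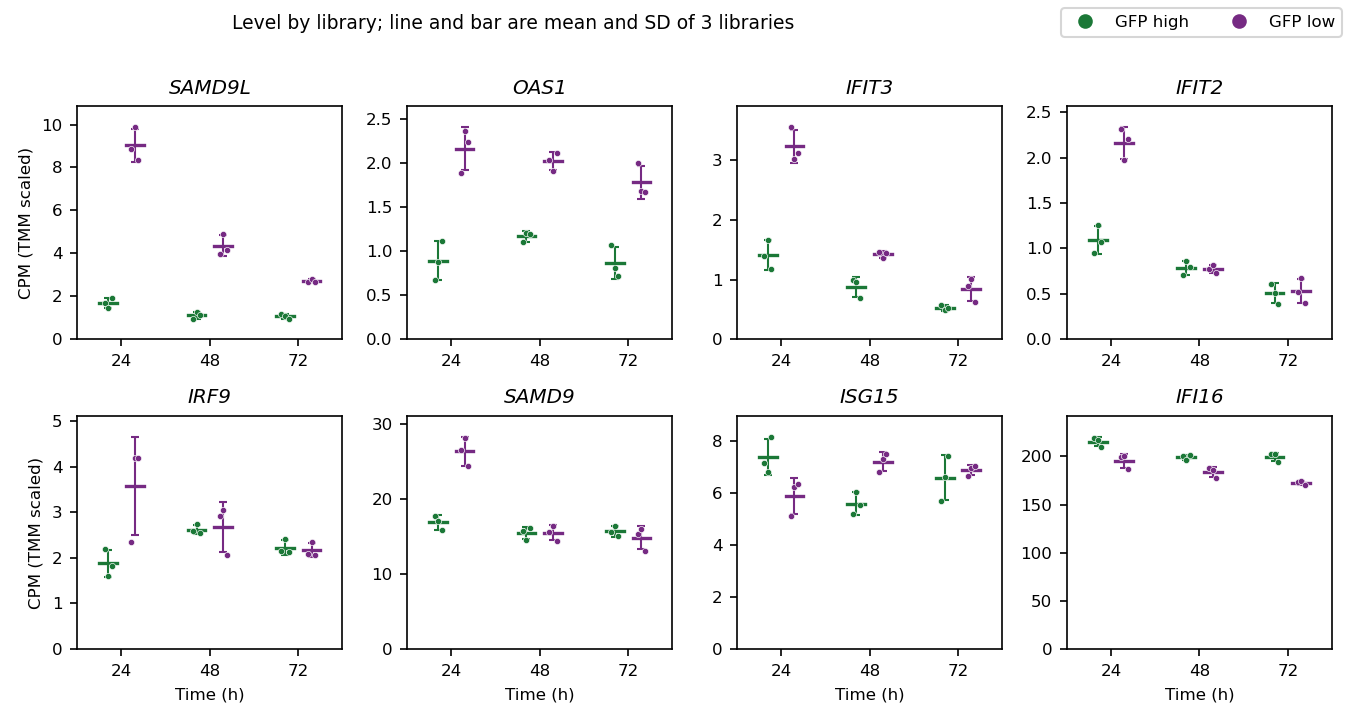
CPM by library for 8 genes at 24, 48 and 72 h (green, GFP high; purple, GFP low; points, libraries; line and bar, mean and SD of 3). SAMD9L, OAS1 and IFIT3 keep GFP low above GFP high at each time, while IFIT2, IRF9 and SAMD9 have their high values in GFP low at 24 h and overlap afterwards; ISG15 changes sides between 24 and 48 h.

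Of 6 genes of the ISG15 system and ubiquitin ligases 3 were tested, and at 24 h 1 was higher, 1 lower and 1 not called. These counts are near the shares of 29.3% higher and 28.5% lower over all tested genes. ISG15 (chr1:1001138-1014540), a modifier that is joined to newly made proteins, was at 6.83, 8.17 and 7.18 CPM in GFP high and 6.23, 6.36 and 5.11 CPM in GFP low libraries at 24 h. The 48 h values were 6.06, 5.54 and 5.19 CPM against 7.33, 7.51 and 6.82 CPM, and those at 72 h were 6.64, 7.44 and 5.71 CPM against 6.97, 7.04 and 6.68 CPM. GFP low was below GFP high at 24 h, above it at 48 h, and overlapped it at 72 h. The differences were -0.33 ± 0.10, 0.37 ± 0.10 and 0.05 ± 0.10 (adjusted p = 0.00821, 0.0104 and 0.761), and the change from 24 to 48 h was 0.70 ± 0.14 (adjusted p = 0.000373). The 24 h call was lost without the GFP low library of the unnumbered set (-0.24, adjusted p = 0.0603) or the GFP high library of set 2 (-0.24, adjusted p = 0.0732). TRIM22, a ubiquitin ligase that restricts viral transcription, was at 12.7, 11.6 and 11.8 CPM in GFP high and 13.9, 14.1 and 16 CPM in GFP low libraries at 24 h (0.29 ± 0.07, adjusted p = 0.000728), without overlap, and was not called later. DTX3L was at 62.2 to 65.3 CPM over both GFP levels at 24 h and was not called at any time. At 72 h it was called lower under that block (-0.08, adjusted p = 0.0162), with the trend over exon length removed (-0.09, adjusted p = 0.0321) and without the GFP low library of the unnumbered set (-0.10, adjusted p = 0.0387). Its partner PARP9, an ADP-ribosyltransferase, was at 25.1 to 27 CPM against 27.3 to 30.9 CPM at 24 h (0.14 ± 0.05, adjusted p = 0.0203). That call was lost without the GFP low library of the unnumbered set (0.09, adjusted p = 0.164) or the GFP high library of set 2 (0.11, adjusted p = 0.114). At 48 h PARP9 was called lower with the block only (-0.12, adjusted p = 0.037).

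Among membrane restriction factors and other effectors, BST2 (chr19:17402939-17405630, minus strand) was at 68.6, 77.1 and 67 CPM in GFP high and 66.3, 72.2 and 68.3 CPM in GFP low libraries at 24 h. At 48 h it was at 69.3, 71.3 and 68.5 CPM against 76.5, 82.6 and 77.9 CPM, and at 72 h at 70.6, 72.2 and 71.1 CPM against 70.6, 78.2 and 70.2 CPM. The groups were apart at 48 h only, with a difference of 0.18 ± 0.05 (adjusted p = 0.00832) and a change from 24 to 48 h of 0.22 ± 0.07 (adjusted p = 0.0107). That change turned to -0.08 (adjusted p = 0.386) with the trend over exon length removed. ISG20, an exonuclease that degrades viral RNA, was at 14.5, 14.8 and 13.5 CPM in GFP high and 15.2, 16.2 and 15 CPM in GFP low libraries at 24 h. The 48 h values were 17.3, 16.3 and 14.7 CPM against 18.2, 18.5 and 18.2 CPM, and those at 72 h were 19.7, 18.7 and 17.8 CPM against 22.3, 21.4 and 20.4 CPM. GFP low was above GFP high without overlap each time, by 0.11 ± 0.06, 0.18 ± 0.06 and 0.19 ± 0.06 (adjusted p = 0.103, 0.0228 and 0.0154). With the library set as a block the 24 h value was called (0.12, adjusted p = 0.0277). The 48 h call was lost without the GFP high library of the unnumbered set (0.14, adjusted p = 0.119). The 72 h call was lost without that library at 72 h (0.16, adjusted p = 0.0696), the GFP low library of set 1 (0.17, adjusted p = 0.0631) or that of set 2 (0.18, adjusted p = 0.0539).

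Of the nuclear body and other induced genes, SP100, a scaffold of PML nuclear bodies, was at 46.1, 44.2 and 44 CPM in GFP high and 58.3, 56.7 and 60.3 CPM in GFP low libraries at 24 h (0.38 ± 0.03, adjusted p = 3.04e-09). It lay at 40.5 to 44 CPM over both GFP levels at 48 and 72 h, where it was not called, and the difference changed by -0.34 ± 0.05 from 24 to 48 h (adjusted p = 7.38e-06). IFI35 (chr17:43006740-43014456), an adaptor that binds NMI, was at 0.645, 0.916 and 0.745 CPM in GFP high and 1.18, 1.99 and 1.38 CPM in GFP low libraries at 24 h. At 48 h it was at 0.67, 0.818 and 0.848 CPM against 1.58, 1.22 and 1.27 CPM, and at 72 h at 0.724, 0.762 and 0.58 CPM against 1.04, 0.856 and 1.17 CPM. GFP low was above GFP high without overlap each time, by 0.98 ± 0.21, 0.79 ± 0.22 and 0.54 ± 0.23 (adjusted p = 0.000454, 0.0106 and 0.0929). The 48 h call was lost without the GFP high library of set 1 (0.70, adjusted p = 0.052). IFI6, a mitochondrial survival protein, was at 1.05 to 1.97 CPM over both GFP levels at 24 h and was not called at any time.

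Tested genes below 1 CPM in each group fall outside the rule for full description and are named here with their values in view. IFITM1, which blocks fusion of viral and cell membranes, was at 0.469, 0.542 and 0.813 CPM in GFP high and 0.164, 0.349 and 0.24 CPM in GFP low libraries at 24 h, and GFP low was lower without overlap at the 3 times: -1.17 ± 0.30, -1.05 ± 0.30 and -1.35 ± 0.28 (adjusted p = 0.00205, 0.0131 and 0.00104). Its 48 h call was lost without the GFP high library of set 2 (-0.83, adjusted p = 0.108) or the GFP low library of set 1 (-0.89, adjusted p = 0.0599). IFITM1, IFITM2 and IFITM3 are related genes that lie close together on chromosome 11. How reads that map to several places were counted is not stated in the labels or files, so the split between these genes is uncertain. PARP14 was at 0.88, 0.935 and 0.881 CPM against 0.393, 0.37 and 0.571 CPM at 24 h, lower in GFP low by -1.03 ± 0.26 (adjusted p = 0.00186), and by -0.88 ± 0.30 at 48 h (adjusted p = 0.0345). The 48 h call was lost without the GFP low library of the unnumbered set (-0.94, adjusted p = 0.0602), that of set 2 (-0.64, adjusted p = 0.191) or the GFP high library of set 2 (-0.58, adjusted p = 0.267). XAF1, a proapoptotic protein, was at 0.0586, 0.0561 and 0.135 CPM against 0.492, 0.328 and 0.361 CPM at 24 h, without overlap. MX2, a GTPase of the nuclear envelope that restricts retroviruses, was at 0.088, 0.131 and 0.0677 CPM against 0.459, 0.308 and 0.301 CPM at 24 h, also without overlap. No test value is printed for these 2 genes at 24 h, since they entered the test through the group in which they are high. Their points and calls in the plots, and their place in the counts of called genes at 24 h, are a description only. At 48 h MX2 was at 1.83 ± 0.61 (adjusted p = 0.0321), a call that was lost without the GFP high library of set 1 (1.34, adjusted p = 0.124) or set 2 (1.98, adjusted p = 0.0814) or the GFP low library of set 1 (1.73, adjusted p = 0.0806) or set 2 (1.75, adjusted p = 0.0913). DHX58 (LGP2), a helicase that tunes IFIH1, was at 0.147, 0.355 and 0.169 CPM against 0.393, 0.657 and 0.661 CPM at 24 h (1.25 ± 0.39, adjusted p = 0.00912) and at 0.0319, 0.0629 and 0.141 CPM against 0.245, 0.362 and 0.511 CPM at 48 h (2.28 ± 0.53, adjusted p = 0.00286). These libraries hold few counts of the gene. IFITM3 and IFI44 were not called at any time.

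Whether the GFP difference changed with time was tested as the difference of differences. From 24 to 48 h it became smaller or more negative for 8 of the 29 tested genes and larger for 2, ISG15 and BST2, while over all tested genes it became lower for 21.4% and higher for 22.1%. The median change was -0.20 over the 29 genes and -0.02 over all tested genes. It includes MX2 and XAF1, which passed the filter only through GFP low at 24 h, so that it is a description only. The 8 genes were IFIT2, IRF9, SAMD9, IFIH1, STAT2, SP100, TRIM22 and PARP9, of which TRIM22 changed by -0.33 ± 0.09 and PARP9 by -0.25 ± 0.07 (adjusted p = 0.00603 and 0.00732). None of the 10 calls was lost when any 1 library was left out, but those of SP100, PARP9 and BST2 were lost with the trend over exon length removed, and BST2 turned to -0.08. From 48 to 72 h only DHX58 was called (-2.56 ± 0.70, adjusted p = 0.0235), beside 3.83% lower and 5.19% higher over all tested genes; no gene of the list was called higher by edgeR or DESeq2, nor had any an increase at an unadjusted p under 0.05. With the library set as a block, 4 genes were lower in that comparison, DHX58, ISG15, IFI16 and BST2, while the calls over all tested genes went from 1486 to 3331. These comparisons share libraries with those at single times and are not independent of them.

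Within each GFP level the list was compared between successive times. In GFP low cells from 24 to 48 h, 13 of the 29 tested genes fell and 3 rose, beside 25.1% lower and 25.7% higher over all tested genes, with medians of -0.43 and 0.02. MX2 and XAF1, which were not called here, passed the filter only through GFP low at 24 h. The counts and the median of the 29 genes are thus a description and not support for a direction. IFIT2, IFIT3 and SAMD9L fell by 1.48 ± 0.18, 1.18 ± 0.16 and 1.05 ± 0.11 (adjusted p = 3.58e-07, 2.55e-06 and 3.73e-08), and ISG15, ISG20 and BST2 rose by 0.29 ± 0.10, 0.24 ± 0.06 and 0.20 ± 0.05 (adjusted p = 0.0205, 0.00115 and 0.00163). The ISG15 call was lost without the GFP low library of the unnumbered set at 24 h (0.20, adjusted p = 0.132) or that of set 2 at 48 h (0.25, adjusted p = 0.0798). With the trend over exon length removed, ISG15 was at 0.01 (adjusted p = 0.949) and BST2 turned to -0.08 (adjusted p = 0.22). In GFP high cells from 24 to 48 h, 9 fell and 2 rose, beside 9.97% lower and 10.6% higher over all tested genes, with medians of -0.11 and 0. Of all calls in this comparison 51.5% were higher, and 39.7% with DESeq2. IFIT3, SAMD9L and ISG15 fell by 0.70 ± 0.19, 0.60 ± 0.15 and 0.41 ± 0.10 (adjusted p = 0.0138, 0.00834 and 0.00631). Without the GFP high library of set 2 at 24 h, 5 genes fell in place of 9, with SAMD9L at -0.47 (adjusted p = 0.084) and ISG15 at -0.32 (adjusted p = 0.0567) no longer called, and without that of set 1 at 24 h or set 2 at 48 h IFIT3 was not called (-0.56 and -0.52, adjusted p = 0.0724 and 0.101). ISG20 and IRF1 rose by 0.17 ± 0.06 and 0.16 ± 0.05 (adjusted p = 0.043 and 0.0274), and each call was lost without most of the 6 single libraries, 4 for ISG20 and 5 for IRF1.

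From 48 to 72 h in GFP low cells 6 fell and 2 rose, beside 12.5% lower and 13.9% higher over all tested genes. IFIT3, SAMD9L and IFIH1 fell by 0.80 ± 0.19, 0.67 ± 0.12 and 0.23 ± 0.04 (adjusted p = 0.00398, 0.000274 and 0.000211), and ISG20 and STAT2 rose by 0.22 ± 0.06 and 0.16 ± 0.04 (adjusted p = 0.00512 and 0.0105). The STAT2 call was lost without the 72 h library of the unnumbered set (0.12, adjusted p = 0.0708) or of set 2 (0.14, adjusted p = 0.0611). In GFP high cells over the same interval 4 fell and 3 rose, beside 14.2% lower and 13.7% higher over all tested genes. IFIT3, IFIT2 and PARP9 fell by 0.70 ± 0.22, 0.68 ± 0.22 and 0.22 ± 0.05 (adjusted p = 0.0234, 0.0267 and 0.00333), and ISG20 and STAT2 rose by 0.21 ± 0.06 and 0.12 ± 0.04 (adjusted p = 0.00788 and 0.0455). The IFIT3 and IFIT2 calls were each lost without 4 of the 6 single libraries, with values down to -0.61 and -0.49, and the STAT2 call without any of the 6. ISG20 was thus higher at each later time in both GFP levels, and IFIT3 lower.

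The 24 h differences ran with gene length over the whole table. Across 12148 genes at 1 CPM or more, which are not independent replicates, the log2 fold change and exon length had a Spearman correlation of 0.39 at 24 h, -0.02 at 48 h and 0 at 72 h. The median exon length was 5294 bases in the 29 tested genes and 3998 in all tested genes. When this trend was removed, 18 genes of the list were higher and 4 lower at 24 h, not with the same members. Over all tested genes 9460 were then called, 55.1% of them higher, beside 9531 and 50.7% without the removal. ISG15, with 867 bases of exon, went from -0.33 to -0.02 (adjusted p = 0.865), PARP9 from 0.14 to 0.01 and IRF1 from 0.28 to 0.09 (adjusted p = 0.911 and 0.141), and these 3 calls were lost. SP100 was still called at 0.18 (adjusted p = 0.000126), less than its 0.38. BST2, with 1101 bases, went from -0.04 to 0.26 (adjusted p = 0.000185), and IRF7, IFI6 and IFIT5 were called higher (0.43, 0.48 and 0.56), with OAS2 lower (-0.16). SAMD9L, OAS1, IFIT3, IFIT2, IFI35 and IRF9 were at 2.31, 1.04, 1.23, 1.05, 1.25 and 1.06 and kept their calls. The changes of SP100 and PARP9 from 24 to 48 h went from -0.34 to -0.12 and from -0.25 to -0.10 (adjusted p = 0.0529 and 0.278), that of ISG15 from 0.70 to 0.39 (adjusted p = 0.032).

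**Figure D4:**
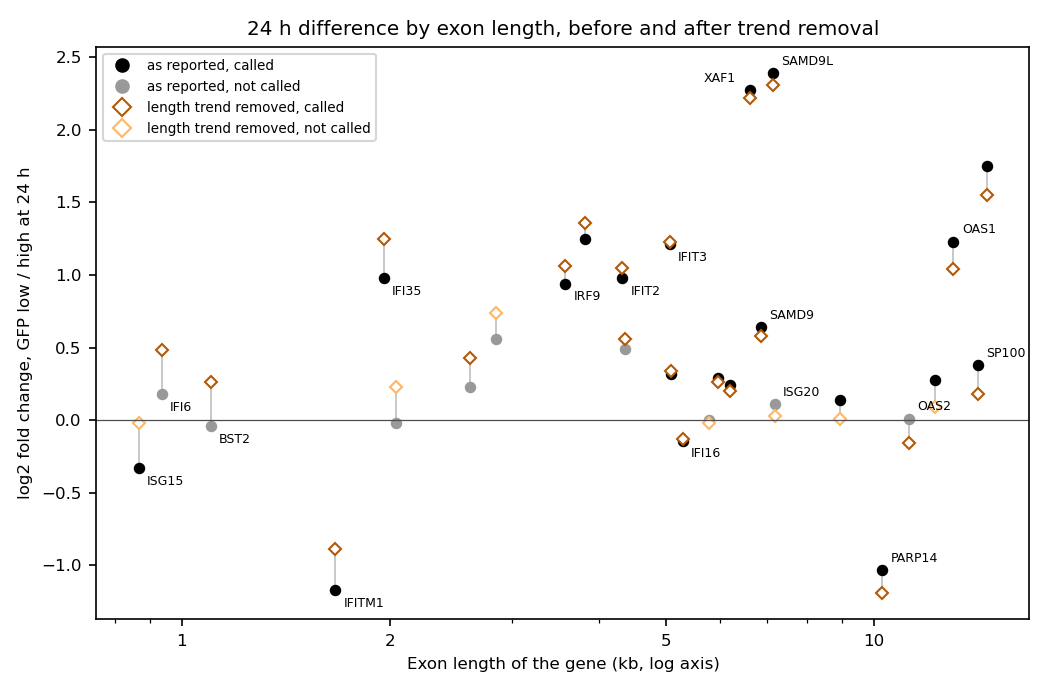
Log2 fold change of GFP low against GFP high at 24 h by exon length (kb, log axis) for the 29 tested genes, as reported (circles) and with the trend over exon length removed (diamonds). Short genes such as ISG15 and BST2 move up, long ones such as SP100 and OAS1 move down, and SAMD9L stays at 2.31 or above. The points and calls of MX2 and XAF1, which passed the filter only through GFP low at 24 h, are a description only.

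Upstream in the pathway, none of 21 interferon genes passed the filter: 13 alpha genes and the beta, epsilon, kappa, omega, gamma and 3 lambda genes. Of 9 receptor chains and kinases, 7 were higher in GFP low at 24 h and 1 was lower, beside 29.3% and 28.5% over all tested genes; the same shares stand beside the 24 h counts of the lists that follow. JAK1, JAK2 and TYK2 were at 160 to 163, 10.5 to 11.8 and 80.7 to 90.6 CPM in GFP high and at 211 to 223, 18.3 to 19.4 and 115 to 125 CPM in GFP low libraries, without overlap. The differences were 0.42 ± 0.03, 0.73 ± 0.06 and 0.48 ± 0.05 (adjusted p = 3.84e-12, 1.64e-10 and 4.97e-08), while IFNGR1, the ligand-binding chain of the interferon gamma receptor, was lower (-0.33 ± 0.03, adjusted p = 2.35e-08). At 48 and 72 h 2 of the 9 were higher and 1, again IFNGR1, was lower, beside 10.6% higher and 13.2% lower over all tested genes at 48 h and 12.9% and 13.5% at 72 h. Outside the list, IRF8, an interferon regulatory factor of B cells, was at 151 to 155 CPM in GFP high and 106 to 109 CPM in GFP low libraries at 24 h, without overlap (-0.51 ± 0.02, adjusted p = 1.99e-14). Factors of the same kind went the other way, with STAT3 and IRF4 called higher in GFP low at 24 h.

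Of 17 other genes of nucleic acid sensing 12 were tested, and 6 were higher and 3 lower at 24 h. The RNA editor ADAR, the adaptor MAVS and the ligase TRIM25 were higher by 0.27 ± 0.02, 0.34 ± 0.04 and 0.23 ± 0.03 (adjusted p = 2.36e-11, 6.26e-08 and 1.79e-07). The DNA sensor AIM2, the adaptor MYD88 and the chaperone UNC93B1 were lower (-0.78 ± 0.05, -0.33 ± 0.04 and -0.30 ± 0.08, adjusted p = 5.24e-12, 8.33e-08 and 0.00435). At 48 h 2 were higher and 4 lower, and at 72 h 3 and 3. The shares over all tested genes were 10.6% higher and 13.2% lower at 48 h, and 12.9% and 13.5% at 72 h. They also stand beside the later counts of the lists that follow. Of 13 negative regulators 12 were tested, with 7 higher and 3 lower at 24 h. At 48 h 4 were higher and 1 lower, and 72 h gave 4 higher and 2 lower. Of 46 other genes induced by interferon 35 were tested, with 11 higher and 10 lower at 24 h, shares near the 29.3% and 28.5% over all tested genes. The later times gave 8 higher and 5 lower (48 h), then 6 higher and 6 lower (72 h). RNF213, a ubiquitin ligase, was at 79.7 to 81.3 CPM in GFP high and 191 to 195 CPM in GFP low libraries at 24 h (1.26 ± 0.03, adjusted p = 3.74e-19), and ZC3HAV1 and ZNFX1 were also higher (0.42 ± 0.02 and 0.54 ± 0.03, adjusted p = 6.59e-13 and 1.35e-12). The immunoproteasome subunits PSMB9 and PSMB8 and the ISG15-conjugating enzyme UBE2L6 were lower (-0.71 ± 0.06, -0.35 ± 0.04 and -0.37 ± 0.04, adjusted p = 4.16e-09, 1.13e-07 and 8.32e-08). At 48 h PSMB8 and UBE2L6 were higher (0.18 ± 0.04 and 0.15 ± 0.04, adjusted p = 0.000952 and 0.00898), while PSMB9 was still called lower. All values of the pathway lists are without correction for exon length, which correlated at 0.39 with the 24 h differences over 12148 genes. The part that length had in these values, and in the turn of PSMB8 and UBE2L6, was not tested.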

How the data were processed

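RNA sequencing counts of 18 Raji libraries were used, 3 in each of 6 groups by GFP level and time. The file as deposited gives raw counts, whole numbers with no normalization, in the column layout of featureCounts per the file headers; the submitters' processing notes name FastQC, STAR, featureCounts (Subread), R 4.2.1 and hg38, with no role or order. The annotation release, strand setting and treatment of multimapping reads are not stated in the labels or files. D1, D2 and D3 in the column names were read as 24, 48 and 72 h; names give the group and library set but not the numbered replicate.

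Of 60710 lines, 3 of a broken entry and 44 second copies of pseudoautosomal genes were left out. The model was run with edgeR 4.0.16 under R 4.3.3 (filterByExpr, TMM, quasi-likelihood F tests, 1 model of 6 group means, 12 residual degrees of freedom). A call is a 2-sided p below 0.05 after Benjamini-Hochberg adjustment across the 16474 genes that passed the filter. The SE was obtained by dividing the size of the log2 fold change by the root of F. The fit was tested on simulated counts. Library pairs of a group differed by more than sampling noise (mean chi-square per gene 1.97 to 4.61, 1 expected) and stayed separate. The listed genes and gene lists were chosen with earlier results of these data known, as was the rule for fully described genes: up to 6 called genes per direction by size for GFP comparisons and 3 for others, with at least 1 CPM in some group, and from each pathway list up to 3 per direction by adjusted p.

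Same-set libraries deviated together from their group means (correlation 0.22 to 0.55, median 0.46, 45 pairs, and a median of -0.21 between sets). Of these libraries, 18 of 18 correlated best with their own set, so the set pairs the libraries. Values for which no other fit is named are from the model without this pairing. With the set as a block, calls over all tested genes went from 9531 to 10548 at 24 h. They went from 3926 to 5780 at 48 h and from 4345 to 6043 at 72 h. Some genes that were not called are thus called in the paired fit. Alternatives were DESeq2 1.42.0, RLE scaling, no filter, the set as a block, removal of the trend with exon length, only the groups compared, and each library left out. Results that need 1 item of the pathway lists are not reported here.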

Additional observations from a re-analysis of the deposited data

Results flagged for a closer look

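The GFP difference (GFP low against high, log2) differed between times for 11 tested genes, by edgeR's test of the difference of differences. From 24 to 48 h it changed by -0.37 for STAT2, -0.92 for IRF9, -0.40 for IFIH1, -1.02 for IFIT2, -0.65 for SAMD9, -0.33 for TRIM22, -0.25 for PARP9 and -0.34 for SP100. It changed by 0.22 for BST2 and by 0.70 for ISG15 over the same interval. From 48 to 72 h it changed by -2.56 for DHX58, whose GFP high libraries at 48 h were at 0.0319 to 0.141 CPM. STAT2 and ISG15 were called at both 24 and 48 h with opposite signs. The ISG15 difference at 24 h was -0.02 (adjusted p = 0.865) with the trend over exon length removed. The STAT2 call at 48 h was lost without any 1 of 5 of the 6 libraries, with DESeq2 (adjusted p = 0.0784), with no filter (0.14), with the length trend removed (0.055) and with only the groups compared (0.0561). The DHX58 call was lost without any 1 of 5 of the 12 libraries compared: GFP low at 48 h, GFP high at 72 h and GFP low at 72 h of the unnumbered set, and GFP high at 48 h of sets 1 and 2, with values of -3.15 to -2.26 over the 12. The change from 24 to 48 h correlated with exon length at -0.40 over 12148 genes at 1 CPM or more. The part that this trend had in the change is given with the values in the report.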

How the results depend on the processing

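Of 240 recomputed counts of called genes, 202 stayed within 1.5 times and 38 did not. Of 618 recomputed values of named genes, 539 kept their direction and their side of the threshold, 77 lost the call and 2 reversed. At 24 h, 15 to 18 genes were higher and 3 to 4 lower in GFP low under the alternatives. Few counts limit the genes under 1 CPM.

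With DESeq2, 1 gene was lower at 48 h, 0 had a lower GFP difference from 48 to 72 h, and in GFP high 1 rose from 24 to 48 h and from 48 to 72 h 1 rose and 2 fell. It gave no adjusted p for MX2 at 48 h or for DHX58 from 48 to 72 h. With RLE scaling 1 rose from 24 to 48 h in GFP high. With no filter 2 were lower at 48 h, and in GFP high 1 rose from 24 to 48 h and 2 fell from 48 to 72 h. With only the groups compared 2 were lower at 48 h, and 2 fell from 48 to 72 h in GFP high. With the length trend removed 0 rose from 24 to 48 h in GFP high, and BST2 reversed to -0.08 for the change of the GFP difference and to -0.08 in GFP low from 24 to 48 h. The cause of these changes was not tested.

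In the paired fit, with the library set as a replicate block, 5 genes were lower at 72 h in place of 3, and 4 had a lower GFP difference from 48 to 72 h in place of 1. Calls over all tested genes went from 4345 to 6043 and from 1486 to 3331. Between times within a GFP level the block added calls for SP100, IRF7, TRIM22, OAS2, IRF9, ISG15, IFIH1 and PARP14 in GFP high and for IRF1, IFI6 and BST2 in GFP low. All tested genes also gained calls there. In GFP high these went from 3388 to 5394 (24 to 48 h) and from 4587 to 6464 (48 to 72 h). In GFP low they went from 8373 to 9440 and from 4353 to 6321.

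Leaving out 1 library at a time, 1 to 4 genes were lower at 48 h, 3 to 5 higher at 72 h, and 0 to 1 had a lower GFP difference from 48 to 72 h. In GFP high 0 to 2 rose and 5 to 9 fell from 24 to 48 h, and 1 to 3 rose and 2 to 6 fell from 48 to 72 h. In GFP low 1 to 2 rose from 48 to 72 h.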
